A study of Mus musculus with 4 samples.

Results

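The Notch pathway was followed here through 10 genes, namely the ligands *Jag1*, *Jag2* and *Dll4*, the receptors *Notch1*, *Notch2*, *Notch3* and *Notch4*, and the target genes *Hes1*, *Hey1* and *Heyl*. They were taken as a named list, 10 of the 32286 genes in the files, and all of them were among the 25763 genes found in at least 3 cells. Levels were read in 6 lineages of lung cells, each defined by UMIs (unique molecular identifiers, which count RNA molecules) of 1 gene that is no member of the list. The mice were WT animals and littermates labelled Tubb3-/-, in which a *Cre* sequence sits at the translation start of both copies of *Tubb3*, the gene for β-III tubulin. All mice, aged 8 to 11 weeks, had received bleomycin into the trachea at 0.8 U/kg, and lungs were taken after 14 days, so no uninjured lung was compared. *Tubb3* was disrupted in every cell of these animals and not in pericytes alone. By Y-linked RNA and *Xist*, replicate 1 of each genotype was male and replicate 2 female. Cells of the 2 WT and 2 Tubb3-/- mice were tagged by mouse and joined in 2 pools before the libraries were made. The whole-cell pool was depleted of red blood cells. The mural cell-enriched pool was depleted of CD31, CD45 and EpCAM positive cells and sorted on MCAM and PDGFRα. Each pool was later split by tag, and the part of a pool that came from 1 mouse is called a library below.

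Notch signaling passes between cells that touch. A Jagged or Delta-like ligand on one cell binds a Notch receptor on its neighbour, proteases then free the receptor's intracellular part, and this part enters the nucleus, binds the DNA-binding protein RBPJ and turns on targets such as the Hes and Hey repressors. In blood vessels the pathway is known for setting arterial identity and sprouting in endothelial cells, and for the contact between endothelial cells and the mural cells, pericytes and smooth muscle cells, that wrap them.

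The 8 libraries held between 41462258 and 95036340 gene UMIs, with medians of 9186 to 16299 UMIs per cell. *Tubb3* itself, as CPM (counts scaled to the library's gene UMIs), lay at 0.868 and 1.93 in the WT whole-cell libraries and at 0.262 and 0.321 in the Tubb3-/- ones. The mural cell-enriched libraries had 3.67 and 5.49 CPM (WT) and 0.680 and 0.789 CPM (Tubb3-/-). Of 30083 cells kept, 21008 fell into 1 lineage, 1747 into none and 7328 (24.4%) matched several and were dropped. The 59 cell barcodes that occurred in more than 1 library were shared between the 2 pools, and none was shared within a pool.

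Pericytes, the cells with at least 1 UMI of *Higd1b* that met no other lineage's limit, numbered 170, 35 and 63 of them from WT and 39 and 33 from Tubb3-/- animals. Smooth muscle cells (at least 3 UMIs of *Myh11*) numbered 4274, fibroblasts (*Pdgfra*) 7884, endothelial cells (*Cdh5*) 2943, epithelial cells (*Epcam*) 582 and immune cells (*Ptprc*) 5155. The *Myh11* limit does not separate smooth muscle of vessels from that of airways. Mural cells below are the pericytes and all of these smooth muscle cells, whether or not they came from a vessel. UMIs of a lineage were summed per mouse over both libraries, and a level below is the CPM of such a sum. The sums held between 255446 and 439070 UMIs in pericytes and at least 2671740 in every other lineage, so that 1 UMI weighs most in pericytes. Since the *Myh11* limit is 3 UMIs, pericytes could carry 1 or 2, and their mean *Myh11* level was 154 CPM, against 2525 in smooth muscle cells. The gene that defines a lineage was bound to be high there and is no check of it. The other known markers of each lineage were highest in that lineage, except for the pericyte marker *Kcnj8*, which had a mean of 56.3 CPM in smooth muscle cells and 44.3 in pericytes. In the pericyte sums the 5 endothelial markers added up to 23.5 to 68.3 CPM, against 5488 to 6776 in endothelial cells. The 6 smooth muscle markers added up to 1945 to 4810 CPM there, against 25028 to 29660 in smooth muscle cells, and the 5 fibroblast markers to 1844 to 4416 CPM, against 6507 to 11521 in fibroblasts. Each set of markers includes the defining gene. By definition *Cdh5* and *Pdgfra* were 0 in pericytes, against means of 1418 CPM in endothelial cells and 522 CPM in fibroblasts, and *Myh11* was held low. The pericyte sum of Tubb3-/- replicate 1 also held 12617 CPM of haemoglobin RNA, where the other 3 mice had 11.7 to 26.6. The part these played in the levels below was not tested.

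Of the 10 genes, 6 were high in either endothelial or mural cells and low in the other. *Dll4*, *Jag2*, *Notch4* and *Hey1* were high in endothelial cells and had means under 5 CPM in mural cells, *Notch3* and *Heyl* were high in mural cells and had means under 5 CPM in endothelial cells, and *Jag1*, *Notch1*, *Notch2* and *Hes1* were spread over several lineages. When the 6 lineages were put in order of mean level for each gene, 22 of the 50 pairs of neighbours in that order had ranges over the 4 mice that did not overlap. Over all 12313 genes with at least 10 CPM in 1 lineage, 29.4% of such pairs did not overlap. The 22 include the step of *Dll4* from smooth muscle cells (mean 0.142 CPM) to pericytes (0 UMIs). The depth of pericytes, where 3 UMIs over all mice are 2.33 CPM, does not allow that step to be ordered.

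**Figure D1:**
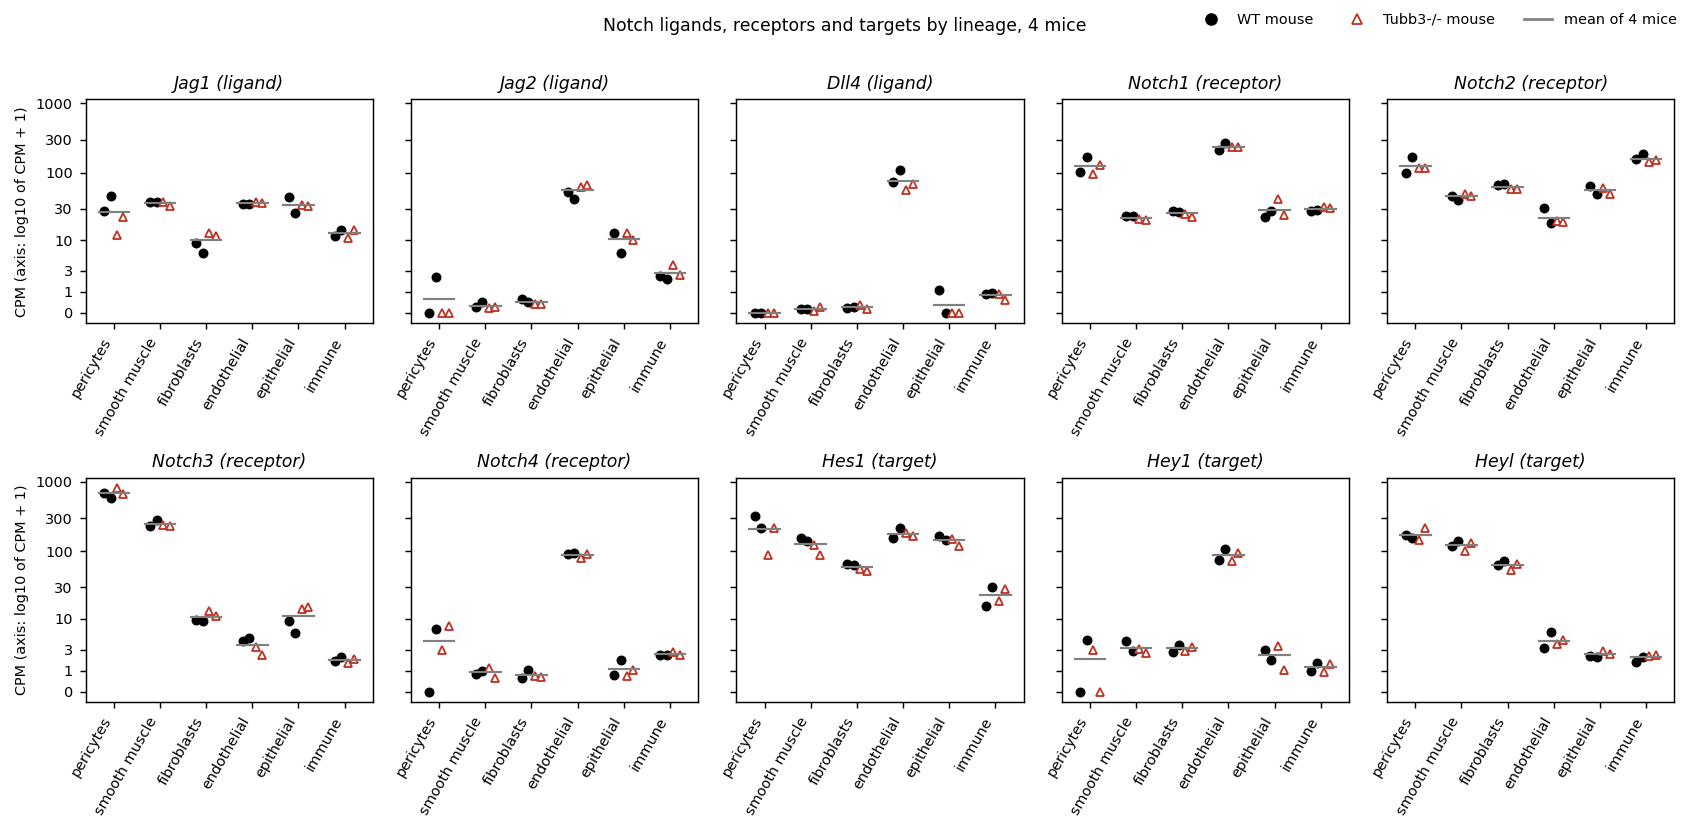
Level of each of the 10 genes in 6 lineages. Each point is 1 mouse (filled circles WT, open triangles Tubb3-/-), the bar is the mean of the 4 mice, and the vertical axis is CPM drawn as the base-10 logarithm of CPM + 1. *Dll4*, *Jag2*, *Notch4* and *Hey1* stand highest in endothelial cells, and *Notch3* and *Heyl* in pericytes followed by smooth muscle cells.

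Among the ligands, *Dll4* (ENSMUSG00000027314, chr2:119325784-119335962, plus strand, mm10) was the one most restricted to a single lineage. Its level in endothelial cells was 72.9 and 109 CPM for WT and 56.4 and 67.5 CPM for Tubb3-/- mice, and no other lineage exceeded 1.12 CPM in any mouse. Pericytes held 0 *Dll4* UMIs of 1290208 in all. Set against the 3 UMIs that such a count of 0 allows, the endothelial level was at least 31.4-fold higher, where the 3 UMIs are counted over all 4 mice and the bound covers counting error only. In the whole-cell libraries, endothelial cells supplied 91.6% to 97.4% of the *Dll4* UMIs found in the 6 lineages, although they were a minority of the cells.

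*Jag2* (ENSMUSG00000002799, chr12:112907819-112929776, minus strand), a ligand of the Jagged type, was also highest in endothelial cells, at 53.3 and 40.8 CPM for WT and 62.4 and 65.9 CPM for Tubb3-/- mice. Epithelial cells came next with 6.18 to 12.9 CPM, and the ranges of these lineages did not overlap. Immune cells followed at 2.07 to 3.76 CPM, again without overlap, and pericytes had 1 *Jag2* UMI in all. The ratio of endothelial cells to pericytes, pooled over mice, was 74.7, with a 95% exact counting interval from 13.4 to 2954.

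*Jag1* (ENSMUSG00000027276, chr2:137081456-137116644, minus strand) was the ligand found in every lineage. It had 37.0, 37.5, 38.0 and 32.5 CPM in smooth muscle cells and 34.6, 34.6, 37.4 and 36.1 CPM in endothelial cells (WT replicates 1 and 2, then Tubb3-/- replicates 1 and 2). Its epithelial level ran from 25.8 to 44.9 CPM and its pericyte level from 12.0 to 45.6 CPM, the latter from 37 UMIs in all. The epithelial level differed between the pools, with 36.5 to 77.6 CPM in the whole-cell libraries and 14.2 to 22.2 CPM in the mural cell-enriched ones, and the reason was not tested. In the sums over both pools the ranges of these 4 lineages overlapped. Immune cells (10.7 to 14.5 CPM) and fibroblasts (6.20 to 12.9 CPM) were at the low end, and no step in the order of *Jag1* was free of overlap.

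The receptor *Notch3* (ENSMUSG00000038146, chr17:32120820-32166852, minus strand), known from the walls of small arteries, had its highest level in pericytes. It was at 681 and 578 CPM for WT and 803 and 661 CPM for Tubb3-/- mice. Smooth muscle cells had 230, 286, 244 and 236 CPM in the same order of mice, below every pericyte value. Epithelial cells (11.1 ± 4.35 CPM, SD, n = 4 mice) and fibroblasts (10.8 ± 1.96 CPM) overlapped each other, and endothelial cells (2.33 to 4.91 CPM) and immune cells (1.61 to 2.15 CPM) were lowest. The endothelial value differed between the pools, with a mean of 2.11 CPM in the whole-cell libraries and 9.09 CPM in the mural cell-enriched ones. The reason for that difference was not tested.

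The stretches just upstream of *Notch3* and *Dll4* are shown because the receptor was high in mural cells and the ligand in endothelial cells. Each is the 150 bases before the RefSeq start (GRCm38.p6), *Notch3* at chr17:32166891-32167040 on the minus strand and *Dll4* at chr2:119325634-119325783 on the plus strand, and capitals mark the GC box GGGCGG on either strand.
*Notch3*: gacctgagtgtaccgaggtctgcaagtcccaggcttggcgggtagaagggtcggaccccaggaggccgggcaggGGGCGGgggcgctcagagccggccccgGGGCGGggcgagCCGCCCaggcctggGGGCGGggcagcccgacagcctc
*Dll4*: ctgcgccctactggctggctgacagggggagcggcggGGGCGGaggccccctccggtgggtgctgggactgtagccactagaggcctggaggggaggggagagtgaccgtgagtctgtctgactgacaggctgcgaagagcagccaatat
These windows hold 4 GC boxes for *Notch3* and 1 for *Dll4*. Over the 250 bases before the start, 5 of the 7 members with a promoter entry held a GC box, against 32.7% of all 32851 windows of that length. The RBPJ core TGGGAA, searched on both strands, was in 0 of the 7, against 21.6% of all windows, which says only that these letters do not occur in these windows. *Hes1*, *Hey1* and *Heyl* had no entry. A match is a description and not a bound site.

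*Notch1* (ENSMUSG00000026923, chr2:26457903-26516663, minus strand) had 212 and 270 CPM (WT) and 235 and 232 CPM (Tubb3-/-) in endothelial cells. Pericytes were next with 102, 169, 96.3 and 129 CPM, below all endothelial values and above all values of the other lineages, which lay between 20.4 and 41.6 CPM. The endothelial and pericyte steps in this order were thus free of overlap. Of the 4 lower lineages, each overlapped its neighbours in the order, while the ends of it, immune cells (27.4 to 31.4 CPM) and smooth muscle cells (20.4 to 23.4 CPM), did not overlap.

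*Notch4* (ENSMUSG00000015468, chr17:34564268-34588503, plus strand), a receptor known from vascular endothelium, had 90.9, 95.6, 79.4 and 93.3 CPM in endothelial cells. It did not exceed 7.60 CPM in any other lineage and mouse, and pericytes held 6 of its UMIs in all. *Notch2* (ENSMUSG00000027878, chr3:98013527-98150361, plus strand) was the only receptor of the list with its lowest mean in endothelial cells. It was highest in immune cells, at 156, 187, 140 and 155 CPM, overlapping pericytes at 97.9, 166, 117 and 118 CPM, and lowest in endothelial cells at 18.3 to 30.4 CPM. Within the immune cells, those with *Cd79a* UMIs (B cells) had 121 to 152 CPM of *Notch2*, those with *Csf1r* UMIs (monocytes and macrophages) 158 to 205 CPM, and those with *Cd3e* UMIs (T cells) 43.1 to 70.4 CPM, the lowest of the 3 in every mouse.

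Among the targets, *Heyl* (ENSMUSG00000032744, chr4:123233556-123249875, plus strand) ran in steps from mural cells to fibroblasts. Pericytes had 172, 157, 147 and 217 CPM, smooth muscle cells 122, 140, 103 and 131 CPM, and fibroblasts 64.5, 74.0, 53.8 and 66.1 CPM. These 3 ranges did not overlap, and no other lineage exceeded 6.05 CPM in any mouse. In the mural cell-enriched libraries alone, endothelial cells had 10.2 to 16.2 CPM, against 0.858 to 2.54 in the whole-cell ones, and immune cells, few in that pool, had 2.53 to 18.7 CPM. Since fibroblasts were numerous, they supplied 64.1% to 79.3% of the *Heyl* UMIs found in the lineages of the whole-cell libraries.

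*Hey1* (ENSMUSG00000040289, chr3:8663359-8667256, minus strand) kept to endothelial cells, with 76.2, 110, 71.9 and 94.7 CPM, and did not exceed 4.56 CPM elsewhere. Pericytes held 3 of its UMIs, a ratio of 37.7 between the pooled lineages with a 95% exact counting interval from 12.9 to 183. *Hes1* (ENSMUSG00000022528, chr16:30064384-30067796, plus strand), a target also used by other pathways, was broad. Its pericyte values were uneven, with 329, 216, 90.2 and 217 CPM from 84, 95, 30 and 57 UMIs. Endothelial cells had 154 to 215 CPM, epithelial cells 122 to 169 CPM and smooth muscle cells 88.1 to 158 CPM, all overlapping their neighbours in the order. Fibroblasts (52.0 to 65.1 CPM) and immune cells (15.7 to 30.4 CPM) were below, each without overlap with the lineage above.

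Sums per lineage do not show how many cells carry a gene, so each cell was also thinned to 2000 UMIs, which left out 282 shallower cells. At that depth 71.7% ± 4.503 (SD, n = 4 mice) of pericytes and 37.9% ± 4.01 of smooth muscle cells had a *Notch3* UMI, against 0.657% ± 0.316 of endothelial cells. Without thinning the shares were 87.6%, 73.4% and 2.70%. *Dll4* was found in 13.9% ± 2.02 of thinned endothelial cells and in 0 of 165 thinned pericytes, which allows a share of up to 1.82% of cells with a UMI. *Notch1* was found in 36.2% ± 3.58 of endothelial cells and 23.8% ± 1.80 of pericytes, and *Heyl* in 31.9% ± 10.0 of pericytes and 21.9% ± 2.59 of smooth muscle cells. The shares of *Heyl* in endothelial cells (0.850%) and immune cells (0.418%) were low, and whether free RNA gave them was not tested.

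The lineages were compared by the quasi-likelihood test of edgeR on the sums of the 4 mice, with the mouse as a block and Benjamini-Hochberg adjustment over all genes tested. Between endothelial cells and pericytes, 8 of the 10 members had an adjusted p-value under 0.05, 5 of them higher in endothelial cells and 3 lower, against 35.3% of the 10749 genes tested. The median log2 fold of the members was 0.70, and 0.03 over all genes. Higher were *Dll4*, *Jag2*, *Hey1*, *Notch4* and *Notch1*. For *Notch4* the log2 fold was 4.31 ± 0.38 (SE), with an adjusted p of 1.06e-06, and for *Notch1* it was 0.99 ± 0.16, with an adjusted p of 0.000323. The fitted folds of *Dll4*, *Jag2* and *Hey1* rest on 0 to 3 pericyte UMIs, and the ratios given above stand in their place. Lower were *Notch3*, by a log2 fold of -7.53 ± 0.23 (edgeR adjusted p = 1.85e-10), *Heyl*, by -5.24 ± 0.22 (adjusted p = 1.70e-09), and *Notch2*, by -2.52 ± 0.24 (adjusted p = 2.26e-06). *Jag1* (log2 fold 0.41 ± 0.31, adjusted p = 0.354) and *Hes1* (-0.12 ± 0.25, adjusted p = 0.771) did not pass. The sorts and depletions differ between the libraries from which these cells came, and their part in these folds was not tested. In the mural cell-enriched libraries alone the same test called 8 members, against 33.5% of the 7760 genes tested. The endothelial cells there are those left after depletion of CD31 positive cells.

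Pericytes and smooth muscle cells differed in the receptors. Of the 7 members tested, 3 were higher in pericytes and 0 lower, against 26.8% of the 11916 genes tested called in either direction. *Notch1* had a log2 fold of 2.28 ± 0.19 (SE, adjusted p = 1.30e-07), *Notch2* of 1.27 ± 0.19 (adjusted p = 7.81e-05) and *Notch3* of 1.25 ± 0.15 (adjusted p = 6.34e-06), all by edgeR. *Heyl*, whose ranges did not overlap, had a log2 fold of 0.27 ± 0.15 and an adjusted p of 0.223, and *Hes1* one of 0.48 ± 0.21 with 0.115. Both passed when a stricter limit was set for each lineage, at least 2 UMIs of its gene and 6 of *Myh11*, with log2 folds of 0.64 and 0.81, so that 5 members were then called. Calls rose over all genes as well, to 41.1% of the 12252 genes tested under that limit. *Hes1* also passed without Tubb3-/- replicate 1 (log2 fold 0.76, adjusted p = 0.00425), and *Jag1*, at -0.61 ± 0.29 and an adjusted p of 0.144 with all mice, passed as lower in pericytes without WT replicate 2 (-1.09, adjusted p = 0.0359). *Hey1* was tested and did not pass, and *Jag2*, *Dll4* and *Notch4* were too low to be tested.

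Against fibroblasts, 6 of the 8 members tested were higher in pericytes and 0 lower, where 22.7% of the 14126 genes tested were called in either direction. *Notch3* had the largest log2 fold of them, 5.72 ± 0.17 (SE, edgeR adjusted p = 4.25e-16), followed by *Notch1* (2.02 ± 0.20, adjusted p = 5.76e-08), *Hes1* (1.49 ± 0.20, adjusted p = 5.89e-06) and *Jag1* (1.29 ± 0.41, adjusted p = 0.0249). *Heyl* (1.15 ± 0.16, adjusted p = 1.10e-05) and *Notch2* (0.73 ± 0.17, adjusted p = 0.00351) were the other two. *Notch4*, from 6 pericyte UMIs, had a log2 fold of 2.34 ± 0.89 and an adjusted p of 0.0662. It passed by DESeq2 (adjusted p = 0.0355), in the mural cell-enriched libraries alone (edgeR adjusted p = 0.0473), under the stricter lineage limit (0.00019) and with the cells of both mural genes counted as pericytes (0.00266). *Hey1* was tested and did not pass, and *Jag2* and *Dll4* were not tested. Without WT replicate 2 the calls of *Jag1* (log2 fold 0.55, adjusted p = 0.509) and *Notch2* (0.57, adjusted p = 0.0630) were lost.

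The pericyte definition leaves out most cells with *Higd1b*. Of 986 such cells 170 (17.2%) met no other lineage's limit, 413 (41.9%) carried *Myh11* besides, at 3 UMIs or more, and 403 (40.9%) met the limit of a lineage outside the mural cells. The cells with both mural genes were therefore summed on their own, a step chosen after the data were seen. Their *Notch3* level was 611, 777, 733 and 799 CPM, overlapping pericytes and above every smooth muscle value, although their *Myh11* level was 1001 to 1242 CPM. *Heyl* was at 193, 252, 178 and 278 CPM in them, also above every smooth muscle value, and *Notch1* at 73.0, 155, 64.9 and 96.3 CPM. *Jag1* was at 40.7 to 51.4 CPM, above its smooth muscle range of 32.5 to 38.0 CPM. With these cells counted as pericytes, *Heyl* passed the test against smooth muscle cells (log2 fold 0.64 ± 0.10, edgeR adjusted p = 0.000778).

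**Figure D2:**
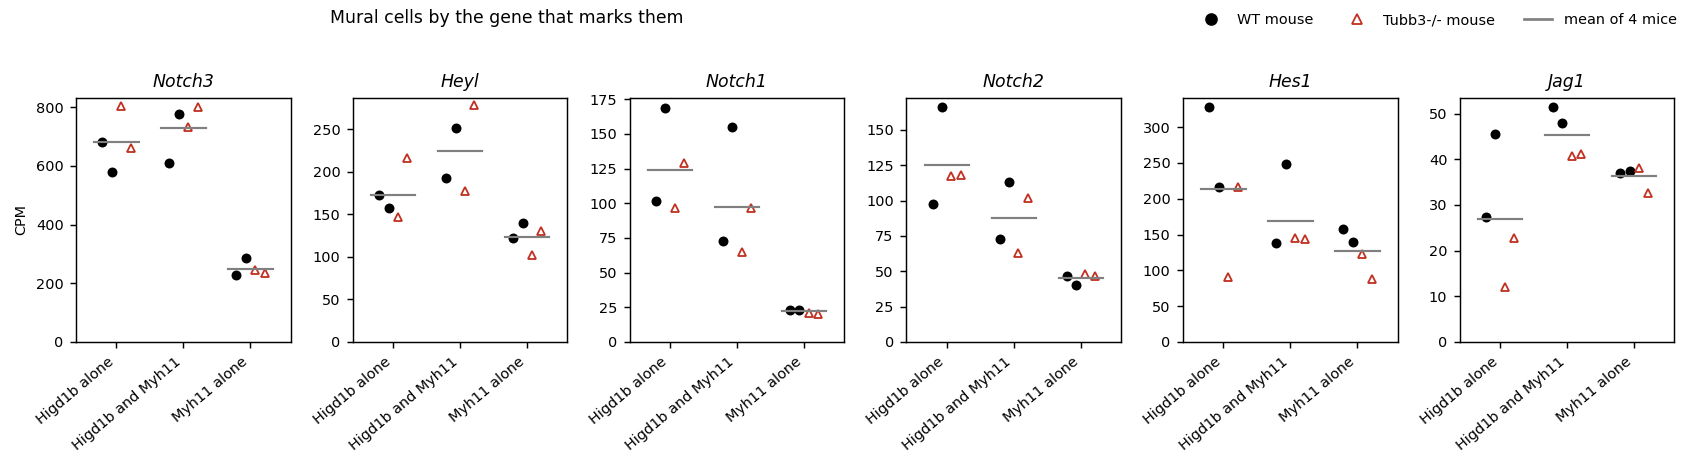
Level in CPM (linear axis from 0) of 6 genes in mural cells with *Higd1b* alone, with *Higd1b* and at least 3 UMIs of *Myh11*, and with *Myh11* alone. Points are mice (filled circles WT, open triangles Tubb3-/-) and bars are means of 4 mice. *Notch3* and *Heyl* in the cells with both genes lie above all values of the cells with *Myh11* alone.

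Endothelial cells were split by 1 further gene each into arterial cells (*Gja5*, 234 cells), general capillary cells (*Gpihbp1*, 1719), aerocytes, the large capillary cells of gas exchange (*Ednrb*, 394), venous cells (*Slc6a2*, 122) and lymphatic cells (*Prox1*, 65). General capillary cells carried none of the other vessel genes, whereas cells of the other groups could carry *Gpihbp1*. Left out were 122 cells with several of the genes other than *Gpihbp1* and 287 cells with no vessel gene. *Hey1* was at 178, 216, 119 and 195 CPM in arterial cells and at 97.5, 136, 81.6 and 114 CPM in general capillary cells. In aerocytes it was at 11.2, 41.8, 46.8 and 47.0 CPM and in venous cells at 24.1 to 56.5 CPM, both below every value of general capillary cells. *Dll4* had a mean of 155.5 ± 66.1 CPM (SD, n = 4 mice) in arterial cells, 85.2 ± 16.9 in aerocytes and 74.0 ± 21.4 in general capillary cells. Venous cells had 10.2 ± 9.57 CPM of *Dll4*, from 13 UMIs, below every value of the other 3.

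Of the other ligands, *Jag2* was also lowest in venous cells and *Jag1* was not. *Jag2* was at 51.2 to 74.4 CPM in arterial cells, 37.2 to 79.0 in general capillary cells and 58.3 to 87.9 in aerocytes, which overlapped, and at 16.5 to 30.8 CPM in venous cells, below them. *Jag1* was at 17.7 to 22.6 CPM in aerocytes, below every value of arterial cells (32.2 to 51.2 CPM) and general capillary cells (26.5 to 36.9 CPM), and it was uneven in venous cells (8.24 to 57.8 CPM). Of the receptors, *Notch1* was at 301 to 424 CPM in arterial cells, above every general capillary value (231 to 288 CPM), and *Notch4* was at 32.9 to 61.5 CPM in venous cells against 84.2 to 124 in arterial cells. *Hes1* had another order, with 179 to 240 CPM in general capillary cells, above every value of arterial cells (123 to 157 CPM) and aerocytes (103 to 176 CPM). Its level in venous cells, 171 to 270 CPM with a mean of 215, and in lymphatic cells, 95.4 to 317 CPM, overlapped that of general capillary cells. Lymphatic cells, few in number, had 33.7 to 70.4 CPM of *Hey1* and at most 61.3 CPM of *Notch4*, both below every general capillary value, from 29 and 31 UMIs. Their *Dll4* level, from 33 UMIs, ran from 28.8 to 176 CPM and overlapped arterial cells, general capillary cells and aerocytes.

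**Figure D3:**
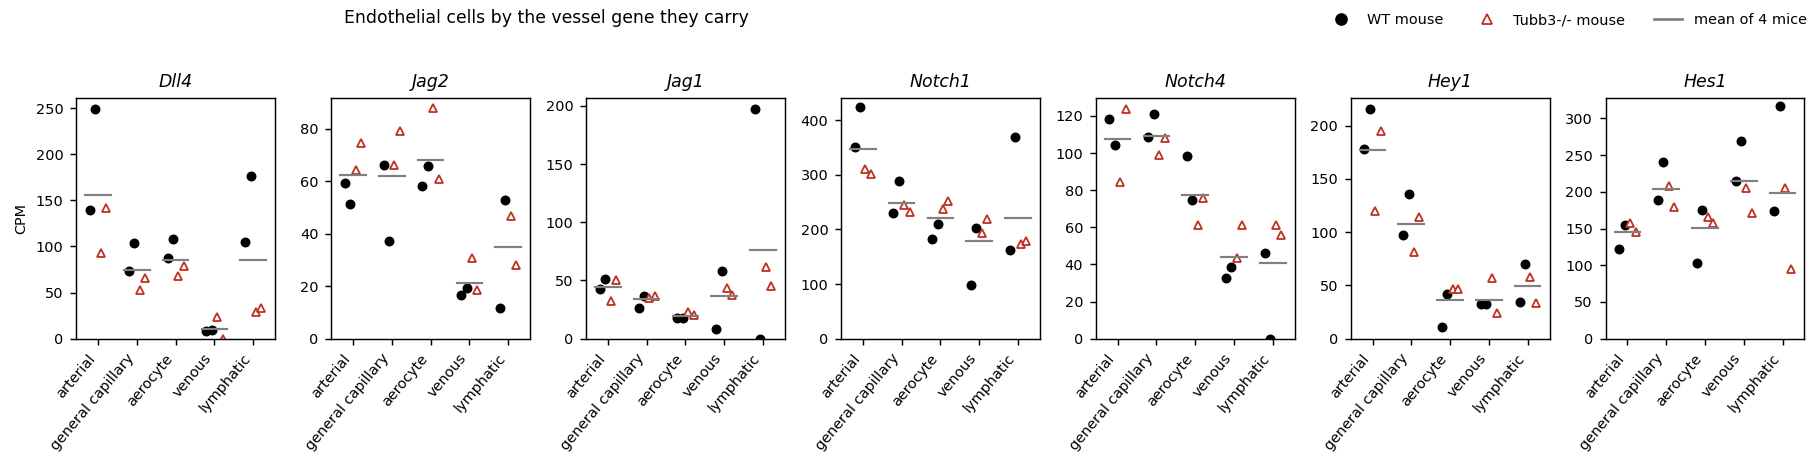
Level in CPM (linear axes from 0, a scale of its own for each gene) of 7 genes in endothelial cells grouped by a vessel gene. Points are mice (filled circles WT, open triangles Tubb3-/-) and bars are means of 4 mice. *Hey1* falls from arterial to general capillary cells and is lower again in aerocytes and venous cells, while *Dll4* is low in venous cells alone among the blood vessel groups.

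The other genes of the pathway were taken as a list of 33. Between endothelial cells and pericytes 15 of the 30 tested passed, 8 higher in endothelial cells and 7 lower, against the 35.3% of all genes given above. Higher were the ligand *Dll1* (69.4 ± 20.8 CPM in endothelial cells, SD, n = 4, and 0 UMIs in pericytes, at least 28.9-fold higher), the Fringe sugar transferases *Mfng* (55.7 ± 8.92 CPM, and 1 UMI in pericytes, a ratio of 71.1 with a 95% exact counting interval from 12.7 to 2810) and *Lfng* (34.4 ± 2.88 CPM, and 3 UMIs in pericytes, a ratio of 14.5 with an interval from 4.93 to 70.2), which tune the response of a receptor to its ligands, and *Numb*, an inhibitor of Notch (448 ± 49.1 CPM against 81.9 ± 14.9 in pericytes). Lower were *Maml3*, a coactivator that binds the receptor's intracellular part with RBPJ (165 ± 12.1 CPM against 438 ± 80.5), *Neurl1b*, a ubiquitin ligase of ligands (16.3 ± 2.93 against 42.5 ± 8.84), and the target *Hey2* (3.46 ± 1.26 against 29.0 ± 12.5).

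Of the same list, 10 of 27 genes passed between pericytes and smooth muscle cells, 8 of them higher in pericytes, and 11 of 28 between pericytes and fibroblasts, 7 of them higher, against 26.8% and 22.7% of all genes. The target *Nrarp*, which encodes a feedback inhibitor of Notch, had 55.6 ± 14.8 CPM in pericytes, 36.5 ± 17.6 in endothelial cells, 4.83 ± 0.664 in smooth muscle cells and 0.411 ± 0.208 in fibroblasts. Its log2 fold between pericytes and smooth muscle cells was 3.30 ± 0.32 (SE, edgeR adjusted p = 5.82e-07). *Hey2* had the opposite order within the mural cells, 43.6 ± 4.53 CPM in smooth muscle cells and a log2 fold of -0.87 ± 0.26 (adjusted p = 0.0210), as had *Rbpj*, at 87.3 ± 7.91 CPM in smooth muscle cells against 53.4 ± 13.6 in pericytes (-0.91 ± 0.19, adjusted p = 0.00172).

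The genes most like each member were found over the 24 sums of 6 lineages and 4 mice, as Pearson's r of log2(CPM + 1). The sums of a lineage share their cell type, those of a mouse share the animal, and all come from the same 2 pools, so r describes this set and carries no test. Among the genes most like *Notch3* were *Fam162a* (r = 0.97) and *Rgs4* (0.96). *Heyl* was most like *Ecm2* (0.98), *Ppp1r14a* (0.98) and *Ddr2* (0.98). *Dll4* was most like *Glp1r* (0.99) and *Tal1* (0.99), *Notch4* like *Klhl5* (0.98) and *Adcy4* (0.98), *Hey1* like *Ppm1f* (0.97), *Jag2* like *B3gnt3* (0.97) and *Pdgfb* (0.97), and *Notch1* like *Sema6d* (0.98). *Jag1* had no gene as close, with 0.89 for *Mical2*. Among the members themselves, *Dll4* and *Notch4* (0.93) and *Dll4* and *Hey1* (0.93) were closest, and *Notch3* and *Heyl* had an r of 0.855.

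The last question was whether the loss of *Tubb3* went with other levels of these genes in injured lungs. By edgeR (quasi-likelihood, Benjamini-Hochberg over all genes), 0 of the members tested had an adjusted p-value under 0.05 in any lineage. The share of all genes called was 0% in pericytes, where 5 members were tested, 0.964% in smooth muscle cells (8 tested), 0% in fibroblasts (9), 0.229% in endothelial cells (10), 0% in epithelial cells (6) and 0% in immune cells (10). At an unadjusted p-value under 0.05 the members numbered 0, 1, 4, 2, 1 and 0 in these lineages in turn, where 5.94%, 13.9%, 19.6%, 15%, 6.28% and 8.58% of all genes tested were under it. DESeq2 also called 0 members in each. Of the 33 other pathway genes, edgeR and DESeq2 called 0 in each lineage, and 1, 3, 5, 2, 0 and 3 had an unadjusted p-value under 0.05 by edgeR, of 19, 29, 31, 31, 26 and 29 tested, to be read against the same shares of all genes. With 2 mice per genotype, a missed threshold does not show equal levels.

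A value above 10 CPM over the 4 mice was found for 35 pairs of member and lineage, and in 13 of them the ranges of the genotypes did not overlap, with Tubb3-/- higher in 5 and lower in 8. By lineage these were 1 of 6 pairs in pericytes, 2 of 6 in smooth muscle cells, 4 of 5 in fibroblasts, 3 of 8 in endothelial cells, 1 of 6 in epithelial cells and 2 of 4 in immune cells. Of all genes above the same level, 35.3%, 44.9%, 52.8%, 48.5%, 40.9% and 42.7% were so arranged in these lineages, in the same order. The members' share was below that of all genes in 4 lineages and above it in fibroblasts and immune cells, where it rests on 4 and 2 genes.

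In endothelial cells, *Dll4* was lower and *Jag2* higher in both Tubb3-/- mice, and neither passed. *Dll4* was at 72.9 and 109 CPM (WT) against 56.4 and 67.5 CPM (Tubb3-/-), a log2 fold of -0.55 ± 0.18 (SE, edgeR unadjusted p = 0.0205, adjusted p = 0.247). *Jag2* was at 53.3 and 40.8 CPM against 62.4 and 65.9, a log2 fold of 0.49 ± 0.14 (unadjusted p = 0.0107, adjusted p = 0.197). Without WT replicate 2 these log2 folds were -0.21 ± 0.14 for *Dll4* (edgeR adjusted p = 0.527) and 0.29 ± 0.12 for *Jag2* (adjusted p = 0.345). The third pair apart was *Jag1*, at 34.6 and 34.6 CPM against 37.4 and 36.1 (0.11 ± 0.12, adjusted p = 0.718). The endothelial sums of WT replicate 2 and Tubb3-/- replicate 1 held 3091 and 2152 CPM of haemoglobin RNA and those of the other mice 32.0 and 28.7, 1 mouse of each genotype on either side.

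In smooth muscle cells *Hes1* was lower in both Tubb3-/- mice, at 122 and 88.1 CPM against 158 and 139.5 CPM in WT mice. The log2 fold was -0.52 ± 0.17 (SE, edgeR unadjusted p = 0.0189, adjusted p = 0.239). With the replicate number, which goes with sex here, as a block, *Hes1* passed (-0.53 ± 0.07, edgeR adjusted p = 0.00301). In that fit 8.24% of all genes tested were called. The mouse nearest to the WT values was Tubb3-/- replicate 1, and without it the log2 fold was -0.81 ± 0.13 with an adjusted p of 0.0107, while without Tubb3-/- replicate 2 it was -0.27 ± 0.14 with an adjusted p of 0.571. The fibroblast markers in these smooth muscle sums were apart by genotype as well, at 2130 and 2018 CPM (WT) against 3482 and 3572 CPM (Tubb3-/-), and their part in the *Hes1* values was not tested. *Hes1* was also lower in Tubb3-/- fibroblasts, at 55.9 and 52.0 CPM against 65.1 and 64.3 (-0.27 ± 0.09, adjusted p = 0.224). In pericytes the values of 90.2 and 217 CPM in Tubb3-/- mice overlapped those of 329 and 216 CPM in WT mice, and in endothelial, epithelial and immune cells the genotypes overlapped too. The other pair apart in smooth muscle cells was *Notch1*, at 21.04 and 20.4 CPM against 23.1 and 23.4 (-0.19 ± 0.11, adjusted p = 0.535).

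Fibroblasts had 3 receptor genes apart by genotype. *Notch2* was at 58.5 and 58.4 CPM in Tubb3-/- mice against 65.4 and 69.7 in WT mice (log2 fold -0.21 ± 0.07, SE, edgeR adjusted p = 0.213), and *Notch1* at 25.3 and 22.2 against 27.9 and 26.8 (-0.21 ± 0.12, adjusted p = 0.391). *Notch3*, low in these cells, was at 13.5 and 11.1 CPM against 9.55 and 9.14 (0.39 ± 0.15, adjusted p = 0.251), and without Tubb3-/- replicate 1 its log2 fold was 0.23. Mural markers in the fibroblast sums were apart in the same direction, the smooth muscle markers at 1688 and 1233 CPM against 801 and 832 in WT mice and the pericyte markers at 158 and 153 CPM against 137 and 110, and their part in the *Notch3* values was not tested. *Jag1* lay just under the limit of 10 CPM there and is named with its values already known. It was at 12.9 and 11.6 CPM in Tubb3-/- mice against 9.00 and 6.20 in WT mice (0.67 ± 0.23, adjusted p = 0.215), and without WT replicate 1 its log2 fold was 1.04 ± 0.17 with an adjusted p of 0.0156. Without WT replicate 2 the log2 fold was 0.41 ± 0.16 (adjusted p = 0.220), and in the whole-cell libraries alone it was 0.42 ± 0.30 (adjusted p = 0.590).

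The remaining pairs apart were *Notch3* in epithelial cells, at no less than 14.3 CPM in both Tubb3-/- mice against 9.36 and 5.81 in WT mice (log2 fold 0.87 ± 0.32, SE, edgeR adjusted p = 0.762), and *Notch1* and *Notch2* in immune cells. The epithelial sums also held more mural marker RNA in Tubb3-/- mice, with pericyte markers at 102 and 93.5 CPM against 42.3 and 31.6 and smooth muscle markers at 395 and 386 CPM against 234 and 302, and the part of this in the *Notch3* values was not tested. *Notch1* was at 31.4 and 30.8 CPM against 27.4 and 28.9 there (0.16 ± 0.09, adjusted p = 0.667), and *Notch2* at 140 and 155 CPM against 156 and 187 (-0.20 ± 0.10, adjusted p = 0.637). *Jag1* in pericytes, at 12.0 and 22.8 CPM in Tubb3-/- mice against 27.4 and 45.6 in WT mice, rested on 4, 6, 7 and 20 UMIs and was too low to be tested. *Notch3* in pericytes overlapped between the genotypes.

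**Figure D4:**
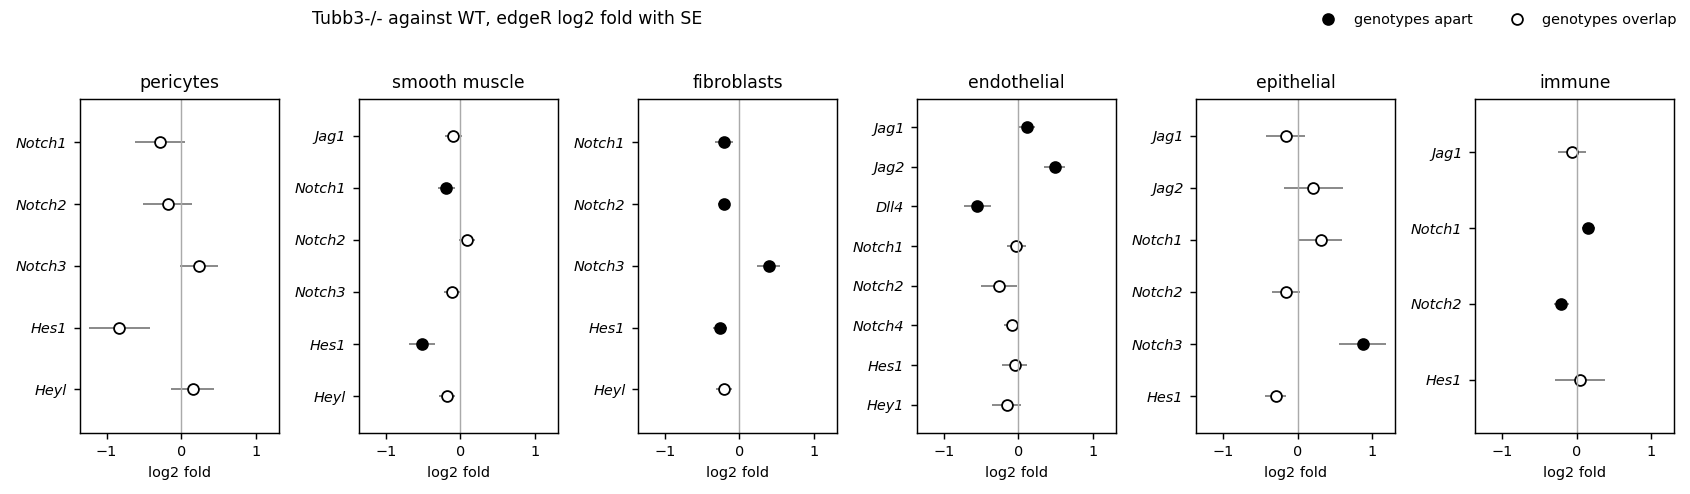
Log2 fold of Tubb3-/- against WT mice (horizontal axis, edgeR, with its SE as a bar) for each gene with a mean of at least 10 CPM in a lineage. Filled points are genes whose genotype ranges did not overlap; *Jag1* in pericytes was too low to be tested and is left out. The folds run from -0.83 for *Hes1* in pericytes to 0.87 for *Notch3* in epithelial cells, and none passed the adjusted test.

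Whether the genotype difference itself differed between lineages was tested with 5 interaction terms over the 24 sums, with the mouse as a block. Of the 10 members 0 passed by edgeR after adjustment, against 0.017% of 17635 genes, and 0 by DESeq2. At an unadjusted p-value under 0.05 there were 2 of 10, against 9.1% of all genes, namely *Notch3* (edgeR adjusted p = 0.259) and *Jag1* (edgeR adjusted p = 0.506). The effects named for single lineages above are thus not shown to differ between lineages.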

How the data were processed

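The counts are UMIs per gene and cell as deposited. The authors made them with Cell Ranger 7.1.0 on mm10 with an added *Cre* sequence (10x 3' chemistry) and split cells by mouse from lipid tags. No normalization was applied, and whether counting used strand is not given in the sources used here. *Dll4*, *Notch1* and *Notch3* overlap genes on the other strand. These had counts of their own, with lineage means of up to 19.1 CPM (*Gm14207*, which overlaps *Dll4*, in endothelial cells). Whether their reads entered the counts of the members was not tested. Genotype and mouse came from the tags the labels assign. Cells with 200 to 7500 genes and no more than 15% mitochondrial UMIs were kept, and Scrublet (scanpy 1.11.5) removed 777 doublets, 139 (0.982%) of the whole-cell pool and 638 (3.82%) of the enriched pool. Counts were then summed per mouse and lineage and tested with edgeR 4.0.16 (filterByExpr, TMM, R 4.3.3), with a threshold of 0.05 on the adjusted p-value. The SE of an edgeR log2 fold was worked back from its test, as the size of the fold divided by the square root of the test's F value. DESeq2 1.42.0 was an alternative. Each test was run on simulated counts with the same spread for all genes. The changes put in were larger than every genotype fold given here and were put in genes with ample counts. The simulation therefore does not show what the tests can find for smaller folds or for genes with few UMIs. Gene IDs and coordinates follow GENCODE vM21. Genotype folds are given for members with a mean of at least 10 CPM whose genotypes did not overlap. The members and gene lists were chosen with earlier results of these data known. Intervals and floors cover counting error only. A gene among those most like a member is not reported here.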

Additional observations from a re-analysis of the deposited data

How the results depend on the processing

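Of the counts of members called and of lineages apart, 122 values under an alternative stayed within 1.5 times the count reported and 7 did not. Many of the 122 were counts of 0 that stayed 0 in the tests by genotype. With 2 mice per genotype, a count that stays at 0 does not show equal levels. In smooth muscle cells 1 member, *Hes1*, passed by genotype with no filter on low counts and with the replicate number as a block (log2 fold -0.53, adjusted p = 0.00301), and leaving out 1 mouse gave 0 to 1. In endothelial cells 1 member, *Jag2*, and for the difference between lineages 1 member, *Jag1*, passed with no filter on low counts. With no filter, 4.68% of all genes tested were called in smooth muscle cells, 3.4% in endothelial cells and 4.12% for the difference between lineages. In fibroblasts leaving out 1 mouse gave 0 to 1 members. Between pericytes and smooth muscle cells the stricter lineage limit gave 5, where 41.1% of all genes tested were called. The cause of these was not tested.

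Of 456 values for single genes, 9 changed sign, all of them values that had not passed. For *Jag1* these were -0.033 by genotype in endothelial cells and -0.049 between endothelial cells and pericytes (stricter limit), and -0.21 between endothelial cells and pericytes and 0.058 between pericytes and smooth muscle cells (*Higd1b* and *Myh11* cells kept as pericytes, added after seeing the data). For *Hes1* between endothelial cells and pericytes these were 0.032 (no filter), 0.23 (without WT replicate 1, in a range of -0.43 to 0.23 over the mice left out) and 0.036 (the added alternative), and for *Hey1* 0.23 against smooth muscle cells and 0.17 against fibroblasts (the added alternative).

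Same-numbered mice were not paired by the labels. In both genotypes the replicate 1 mouse carried Y-linked RNA (194 to 248 CPM) and the replicate 2 mouse *Xist* (632 to 649 CPM). The replicate number thus goes with sex, and the replicate block is also a block on sex. The main fits by genotype held no term for sex, and leaving out 1 mouse makes the sexes uneven between the genotypes. Deviations from the genotype means correlated between same-numbered mice with r from 0.00 in pericytes to 0.62 in fibroblasts. The replicate block changed no call of a member besides *Hes1*. Whole-cell libraries alone gave under 10 pericytes per mouse, and comparisons with pericytes were not run in them. With 255446 to 439070 UMIs per mouse, a member near 3 UMIs cannot be ordered in pericytes. Over all genes, the calls by genotype depended on the setting as well. They numbered 137 in smooth muscle cells (253 by DESeq2, 3 to 1170 over the alternatives), 31 in endothelial cells (225 by DESeq2, 2 to 738), 0 in fibroblasts (781 by DESeq2, up to 1125), 0 in immune cells (87 by DESeq2, up to 258), 0 in pericytes (1 by DESeq2, up to 151), 0 in epithelial cells (18 by DESeq2, up to 67) and 3 for the difference between lineages (338 by DESeq2, 1 to 1059). Calls over all genes rose from 3196 to 5034 between pericytes and smooth muscle cells and from 3203 to 5270 between pericytes and fibroblasts under the stricter limit, and under the added alternative to 5479 against fibroblasts and from 3793 to 6050 between endothelial cells and pericytes.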
